A study of Mus musculus with 6 samples.

Results

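The genes described here encode the heterotrimeric G proteins and the RGS proteins that switch them off. Membership went by gene symbol alone, as every alpha (Gna), beta (Gnb) and gamma (Gng) subunit gene and every Rgs gene with a numbered or standard symbol in the GENCODE M21 annotation. The family itself was chosen with earlier results of these data known. The rule matched 53 annotated genes, of which 51 were among the 23154 genes in the deposited tables: 16 alpha, 6 beta, 9 gamma and 20 Rgs genes. Gng3 and Rgs21 were not analysed here. Gnb1l, among the 6 genes with a beta symbol, encodes a WD-repeat protein that resembles a beta subunit and is not part of the trimer.

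The RNA came from C2C12 cells, an established line of mouse myoblasts, which are muscle precursors that fuse into myotubes. A pINDUCER20b-HA-NUR77 line, with doxycycline-inducible HA-tagged NUR77, was compared with a pINDUCER20b-GFP line as the control. The groups were taken from the titles and the genetic modification labels. The growth text of the GFP samples names the HA-NUR77 line instead, and this disagreement was not resolved. NUR77 is the orphan nuclear receptor encoded by Nr4a1. All dishes of both lines, controls included, received doxycycline at 1 µg/mL 24 hours after seeding and were lysed 18 hours later, and poly(A) RNA was sequenced from 3 dishes per line. Each construct is represented by 1 stable line, so the construct and any other difference between the lines cannot be told apart, and p-values measure the spread between dishes of the same line.

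A heterotrimeric G protein waits at the plasma membrane as an alpha subunit bound to GDP together with a beta and gamma pair. An activated receptor makes the alpha subunit exchange GDP for GTP, after which the alpha subunit and the betagamma pair each act on effectors. Alpha subunits of the Gs family activate adenylyl cyclase, those of the Gi/o family inhibit it, those of the Gq/11 family activate phospholipase C beta, and those of the G12/13 family activate exchange factors for RhoA. RGS proteins speed up GTP hydrolysis by the alpha subunit and so shorten the signal, while the gamma subunit carries the lipid that anchors the betagamma pair in the membrane.

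Library totals ran from 13906096 to 22821446 counts, and values are given as reads or as CPM (reads relative to the library total, with TMM factors; mean ± SD, n = 3 libraries). The Nr4a1 reads of replicates 1, 2 and 3 were 437, 445 and 355 under the label HA-NUR77 and 327, 196 and 417 under the label GFP, and the groups overlapped. Its fitted log2 fold change was 0.14 (SE 0.24, adjusted p = 0.698 by edgeR's quasi-likelihood test), and −0.08 without GFP replicate 2. Because no label says from which species the insert came, this count does not check the labels. Myoblast markers were present in every library and summed to 5693 to 6474 CPM in the HA-NUR77 libraries and 3569 to 4784 CPM in the GFP libraries, with 2 of 6 markers (Cdh15 and Itga7) higher, and 4 higher and 1 lower with the replicate block described next. The 10 markers of fusing and differentiated muscle summed to 17127 to 20731 CPM against 10790 to 16008 CPM, with 2 of 10 higher (Myh3 and Myh8) and 8 of 10 with the block. Beside these counts, 12.4% of all 12509 genes tested were called higher and 13.2% lower, and 23.5% and 24.6% with the block. The call of Myh3 was lost without HA-NUR77 replicate 2 or 3 or GFP replicate 1 (adjusted p = 0.0542, 0.0514 and 0.0575). Their part in the results on G protein genes was not tested. Same-numbered dishes of the 2 lines deviated together, so the replicate number was also added to the fit as a block. Each G protein or Rgs gene whose call this changed is given with its blocked value, and each list with its blocked counts where they differ.

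Of the 51 genes, 29 had enough reads to be tested: 12 alpha, 5 beta, 5 gamma and 7 Rgs genes. The 29 exclude the 22 genes with few reads, so their counts do not speak for all 51. At an adjusted p under 0.05, 3 were higher in the HA-NUR77 libraries (Gng11, Gng5 and Gnb5) and 4 were lower (Gng2, Gng12, Gnaq and Gnai1). These 7 are 24.1% of the genes tested, beside 25.6% of all 12509 genes tested (12.4% higher and 13.2% lower). The 29 genes as a group were therefore called about as often as any gene. The median log2 fold change of the 29 was −0.10, beside 0.01 over all genes, and in 15 of the 29 the libraries of the groups did not overlap, beside 45.6% of all genes. Past 2-fold by the fitted change lay 4 of the 29 (Gng2, Gnai1, Gng11 and Rgs2), beside 6.72% of all genes. Of these, Gnai1 had enough reads to be tested only through its GFP libraries, and Rgs2 only through its HA-NUR77 libraries. With the replicate block 16 of the 29 were called, 5 higher and 11 lower, beside 48.1% of all genes, and with length and GC offsets 1 was higher and 7 were lower, beside 24.9% of all genes. With the block and these offsets together 20 were called, beside 46.8% of all genes. By class the calls fell on 4 of 5 gamma, 2 of 12 alpha, 1 of 5 beta and 0 of 7 Rgs genes.

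**Figure D1:**
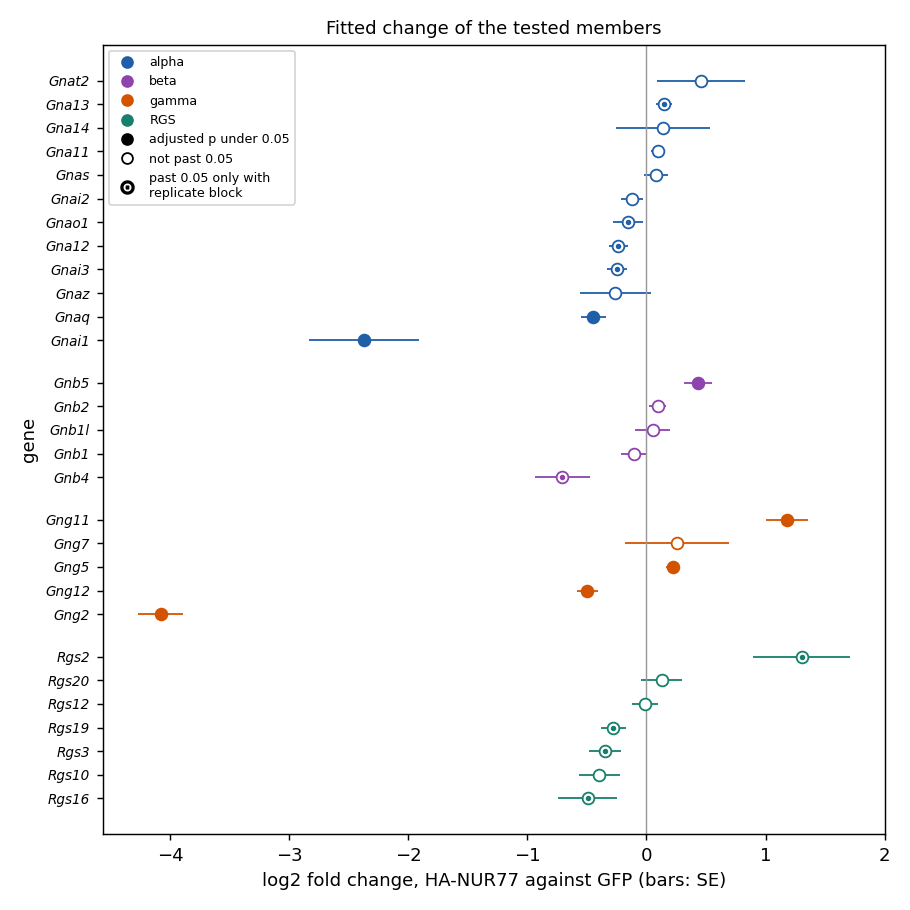
Fitted log2 fold change (HA-NUR77 against GFP, horizontal axis) of the 29 tested genes by class, with the standard error as a bar. Filled points passed an adjusted p of 0.05, open points did not, and a dot inside an open point marks a gene that passed with the replicate block. Gng2 at −4.08 lies far to the left of the other genes, and the Rgs genes have no filled point.

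Gng2 encodes a widely used gamma subunit, and its transcript showed the largest change of the family. It had 77, 83 and 29 reads in HA-NUR77 replicates 1, 2 and 3, and 1029, 813 and 755 reads in GFP replicates 1, 2 and 3. The HA-NUR77 libraries reached at most 3.98 CPM and the GFP libraries at least 51.0 CPM, so the groups lay far apart. The mean level was 3.23 ± 1.01 CPM against 55.9 ± 4.97 CPM, a fitted fall of 16.9-fold. The log2 fold change was −4.08 (SE 0.19, adjusted p = 6.28e-05 by edgeR's quasi-likelihood test), the 8th lowest of the 12509 genes tested. The fall held with each library left out in turn, with an adjusted p of at most 0.000788. In RNA from whole dishes, fewer cells that express a gene and less RNA per cell cannot be told apart.

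Gng2 lies on chromosome 14 of GRCm38, the assembly that mm10 denotes, from 19872559 to 19977627 on the minus strand. The annotation places a lincRNA, Gm48283, on the opposite strand over 20.4% of its exon bases. The library kit marks strand, but which strand setting the counting used is not given. The annotation also lists processed pseudogenes of Gng2, Gng5 and Gnb1, and how reads shared with such copies were treated is not given either.

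Gng11, whose product is a farnesylated gamma subunit, rose. It had 253, 230 and 220 reads in the HA-NUR77 libraries and 94, 85 and 83 reads in the GFP libraries. All 3 HA-NUR77 values, at 10.0 to 15.8 CPM, lay above the narrow GFP range of 5.57 to 5.83 CPM. The log2 fold change was 1.18 (SE 0.18, adjusted p = 0.00388 by edgeR's quasi-likelihood test), a 2.27-fold rise that held with each library left out in turn. HA-NUR77 replicate 3, the shallowest library, had the highest Gng11 level of the 6, and it also had the lowest levels of Gng2 and Gng12.

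Gng12 encodes a broadly expressed gamma subunit. Its reads numbered 1893, 2125 and 1162 under HA-NUR77 and 2264, 1967 and 1730 under GFP. Scaled to depth, the HA-NUR77 libraries (83.4 to 97.8 CPM) lay below the GFP libraries (117 to 135 CPM). It fell by 0.49 on the log2 scale (SE 0.09, adjusted p = 0.00788 by edgeR's quasi-likelihood test), and the fall held with each library left out in turn. An annotated transcript on the opposite strand covers 2.64% of its exon bases.

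Gng5 was the gamma gene with the highest level per kilobase. It had 2107, 2469 and 1494 reads in the HA-NUR77 libraries and 1557, 1343 and 1373 in the GFP libraries. The levels hardly varied within a group, at 108 ± 0.849 CPM and 92.4 ± 0.359 CPM. The rise was small, at a log2 fold change of 0.22 (SE 0.06, adjusted p = 0.0257 by edgeR's quasi-likelihood test). It missed the threshold with length and GC offsets (adjusted p = 0.0521), with no filter on low counts (0.0560), and with HA-NUR77 replicate 1 or 3 or GFP replicate 1, 2 or 3 left out (0.0967, 0.0610, 0.0775, 0.0807 and 0.0531). Gng7, a gamma subunit best known from the striatum, was barely detected, with 18, 20 and 5 reads against 10, 13 and 6. Its groups overlapped, and its log2 fold change was 0.25 (95% interval −0.96 to 1.47).

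**Figure D2:**
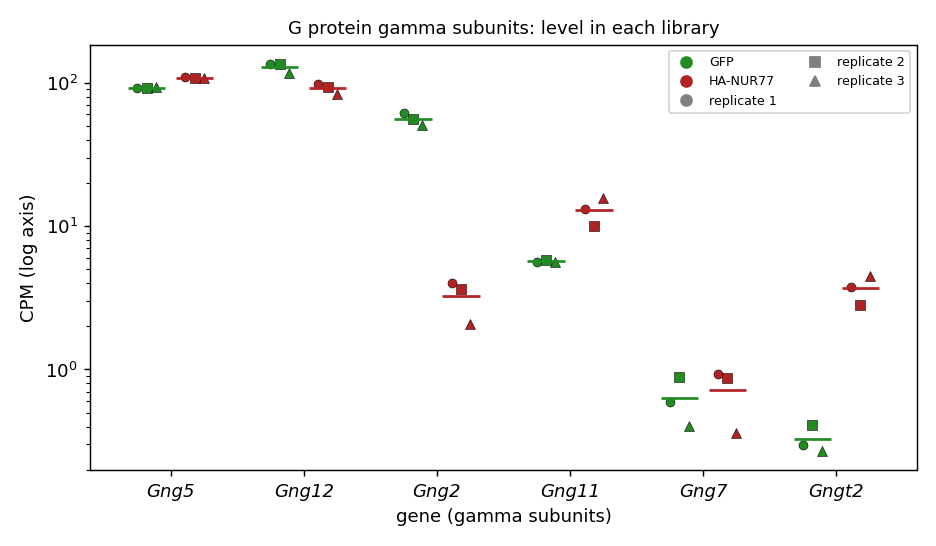
Level of the 5 tested gamma genes and of Gngt2 in each library, in CPM on a log axis, with the group mean as a bar and the replicate number as the marker shape. Green GFP and red HA-NUR77 points are separate for Gng5, Gng12, Gng2, Gng11 and Gngt2, with the widest gap at Gng2, and mix for Gng7.

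Scaled per kilobase of exon, so that genes can be compared, the summed gamma level was 73.8 ± 2.64 CPM per kb in the HA-NUR77 libraries and 80.1 ± 3.21 in the GFP libraries. The sum covers the 9 gamma genes of the symbol rule and leaves out Gngt2, described below. Within it the level of Gng10 is uncertain, as 72% of its exon bases are shared with another annotated gene. The composition of this gamma level differed more than its sum. Gng2 made up 15.9% ± 0.868 of the gamma level under GFP and 1.00% ± 0.316 under HA-NUR77. Gng12 made up 33.9% ± 1.40 under GFP and 26.2% ± 2.27 under HA-NUR77. Gng5 went from 41.8% ± 1.87 to 53.0% ± 1.82 and Gng11 from 7.71% ± 0.320 to 19.1% ± 3.78. None of these 4 shares overlapped between the groups, and since shares sum to a fixed total they are not independent of each other. Within a library, the Gng2 to Gng12 ratio per kilobase was 0.0376 ± 0.00931 against 0.468 ± 0.0222. The Gng12 to Gng5 ratio was 0.495 ± 0.0361 against 0.815 ± 0.0674, and the Gng11 to Gng5 ratio 0.362 ± 0.0814 against 0.185 ± 0.00500. These are 3 of 5 ratios computed, and in an exact two-sided permutation test each gave p = 0.1 (adjusted p = 0.1), the smallest that 3 against 3 libraries allow.

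**Figure D3:**
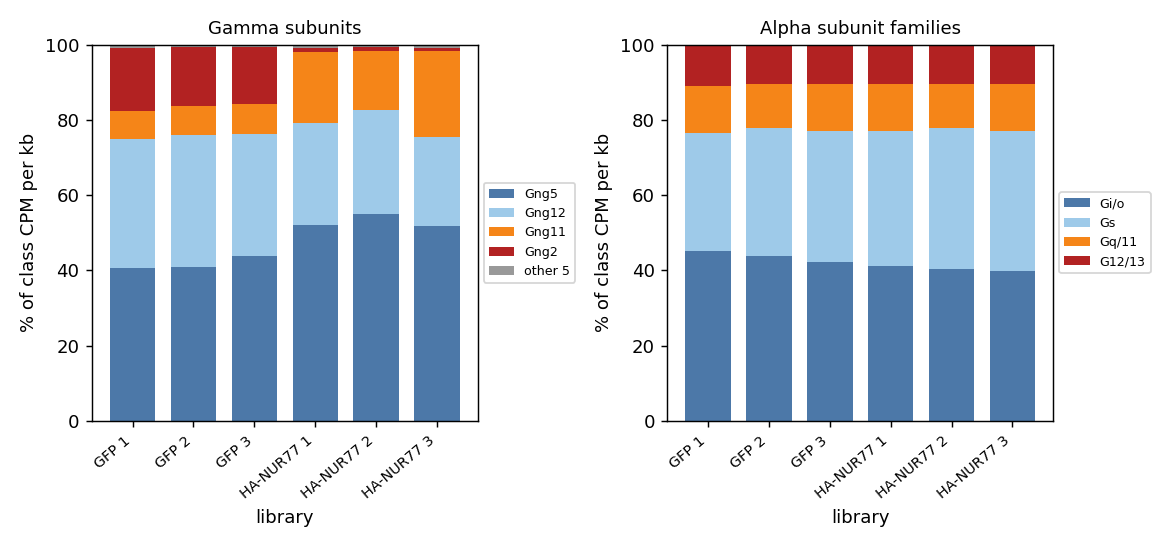
Composition of the gamma subunit transcripts (left) and of the alpha subunit families (right) in each library, as a percentage of the summed CPM per kilobase of the class. The Gng2 share shrinks from 15.9% in the GFP mean to 1.00% in the HA-NUR77 mean, while the 4 alpha families keep their order in all 6 libraries.

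A further gamma subunit gene, Gngt2, falls outside the symbol rule and encodes the gamma subunit of the cone transducin. It had 73, 64 and 63 reads under HA-NUR77 and 5, 6 and 4 under GFP. Every HA-NUR77 library thus lay far above every GFP library. Gngt2 had enough reads to be tested only through its HA-NUR77 libraries, so some gap between the groups was a condition of its being tested. The rise started from a low level (3.69 ± 0.866 against 0.326 ± 0.0752 CPM) and was 3.46 on the log2 scale (SE 0.32, adjusted p = 0.000484 by edgeR's quasi-likelihood test), and it held with each library left out in turn. Per kilobase Gngt2 reached 1.97 CPM under HA-NUR77, above the 0.735 CPM of Gng2 there. It shares 234 exon bases with Abi3 on the opposite strand, which had 25 reads under HA-NUR77 and 31 under GFP. Gngt2 is also expressed in blood cells, and the macrophage markers summed to 1.94 to 3.31 CPM under HA-NUR77 and 0.830 to 1.58 CPM under GFP. Of these 5 markers Csf1r rose, from 19 to 78 reads, a call lost without HA-NUR77 replicate 1 or 2 or GFP replicate 1 or 3 (adjusted p = 0.136, 0.0747, 0.113 and 0.0800), and Cd68, with 26 reads under GFP and 44 under HA-NUR77, did not pass the test. Not tested were Lyz2 with 12 and 26 reads, Ptprc with 3 and 3, and Adgre1 with 0 and 1. The part of these markers in the Gngt2 result was not tested. The other marker lists, of endothelium, adipocytes, neurons and glia, and lymphocytes, summed to at most 5.45 CPM in any library, with Pparg the only 1 of their genes that passed the test, a call kept only without HA-NUR77 replicate 2 when 1 library was left out (adjusted p up to 0.115, without GFP replicate 1).

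The upstream sequence of the called genes was searched for letters that NUR77 and other factors are known to bind. RefSeq start-site windows (300 bases, GRCm38.p6) were matched for 38 of the 51 genes, in 51 windows, and for 6 of the 7 called genes, all but Gng11. The NBRE, the element to which NUR77 binds as a monomer, was searched as AAAGGTCA on both strands. It was in 0 of the 51 windows, beside 1.51% of all 32851 windows. After that result, the core hexamer AGGTCA, which lies within the NBRE, and the GC box GGGCGG were searched in the same way. The hexamer was in 5.88% of the windows of these genes and 16.3% of all windows, and the GC box in 54.9% and 35.7%. A match is a description of letters and not a binding site, and the absence of a match says only that these letters are not in these windows. The 250 bases before 1 RefSeq start are shown 5′ to 3′ for the gene that fell most (Gng2, chr14:19976694-19976943, minus strand), for the most abundant gamma gene (Gng5, chr3:146499586-146499835, plus strand) and for the called gene with the hexamer (Gnb5, chr9:75306038-75306287, plus strand). Capitals mark the GC box, here on the opposite strand as CCGCCC, in Gng5 and the hexamer in Gnb5, and Gng2 has neither.
Gng2: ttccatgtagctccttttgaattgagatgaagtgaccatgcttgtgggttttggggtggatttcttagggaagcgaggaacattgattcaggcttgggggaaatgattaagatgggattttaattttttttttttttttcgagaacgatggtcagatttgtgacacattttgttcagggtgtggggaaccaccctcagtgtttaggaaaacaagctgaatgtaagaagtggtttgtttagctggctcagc
Gng5: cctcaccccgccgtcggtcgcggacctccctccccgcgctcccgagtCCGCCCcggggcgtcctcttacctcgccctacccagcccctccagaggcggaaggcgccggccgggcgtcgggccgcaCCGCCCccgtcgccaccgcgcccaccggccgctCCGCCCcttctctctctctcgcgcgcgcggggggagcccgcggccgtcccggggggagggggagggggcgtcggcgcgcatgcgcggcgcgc
Gnb5: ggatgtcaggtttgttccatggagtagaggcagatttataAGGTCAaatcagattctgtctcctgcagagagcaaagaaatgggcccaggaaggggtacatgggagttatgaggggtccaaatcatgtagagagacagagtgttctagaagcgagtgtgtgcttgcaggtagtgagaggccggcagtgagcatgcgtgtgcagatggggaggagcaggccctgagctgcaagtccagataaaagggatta
The 3 stretches differ in base composition. Gng2 upstream is 41.2% G and C with 3 CpG pairs, Gng5 is 82.4% with 44, and Gnb5 is 50.8% with 3, beside a median of 52.4% and 6 over all windows. The GC boxes of Gng5 begin 203, 125 and 92 bases before the start, and the hexamer of Gnb5 begins 210 bases before it. Gng2 has more than 1 annotated start, and the window shown is the RefSeq one matched. It lies inside the gene as annotated, whose 5′ end is at 19977627, so it is not the sequence before that end.

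Among the alpha subunits, Gnaq and Gnai1 fell and none rose. Gnaq encodes the alpha subunit that activates phospholipase C beta. It had 1413, 1608 and 823 reads under HA-NUR77 and 1655, 1381 and 1224 under GFP. Scaled to depth the groups did not overlap, at 59.1 to 73.0 CPM against 82.8 to 98.1 CPM. The log2 fold change was −0.45 (SE 0.10, adjusted p = 0.0190 by edgeR's quasi-likelihood test). The call was lost without GFP replicate 1 (adjusted p = 0.0753) or GFP replicate 2 (0.0591).

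Gnai1, an inhibitory alpha subunit, was scarce in both groups. It had 2, 4 and 6 reads under HA-NUR77 and 17, 15 and 21 under GFP, with no overlap. The mean level was 0.236 ± 0.172 CPM against 1.15 ± 0.232 CPM. On the log2 scale it fell by 2.37 (SE 0.46, adjusted p = 0.0106 by edgeR's quasi-likelihood test), and the fall held with each library left out in turn. Gnai1 had enough reads to be tested only through its GFP libraries, so some gap between the groups was a condition of its being tested. It contributed little to the inhibitory pool, since Gnai2 and Gnai3, the other members of that branch, stood at 113 and 40.8 CPM per kb on average over all libraries and Gnai1 at 0.221.

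Gnas, which encodes the stimulatory alpha subunit together with imprinted alternative products, was the most abundant alpha gene per kilobase. Its reads numbered 28887, 38811 and 20468 under HA-NUR77 and 22843, 22704 and 21921 under GFP. The groups overlapped, at 1552 ± 123 CPM and 1465 ± 103 CPM. The log2 fold change was 0.08 (95% interval −0.19 to 0.36, adjusted p = 0.561 by edgeR's quasi-likelihood test). With length and GC offsets it was 0.26 (adjusted p = 0.0811), and with the block as well Gnas passed (0.26, adjusted p = 0.00318). On the opposite strand, Gm20721 and Nespas cover 13.1% and 8.83% of its exon bases.

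The other tested alpha genes had log2 fold changes from −0.26 (Gnaz) to 0.46 (Gnat2). Gna11, the close relative of Gnaq, was at 143 ± 2.59 CPM against 134 ± 2.59 CPM (log2 fold change 0.09, adjusted p = 0.263 by edgeR's quasi-likelihood test). The Gnaq to Gna11 ratio per kilobase was 0.312 ± 0.0333 under HA-NUR77 and 0.455 ± 0.0478 under GFP, with no overlap (exact two-sided permutation p = 0.1). Gna12 and Gna13, which act on RhoA exchange factors, had log2 fold changes of −0.24 and 0.15 and did not pass the test (adjusted p = 0.0590 and 0.155), whereas with the replicate block both did (0.00470 and 0.0405). Gnai3 at −0.25 and Gnao1, best known from brain, at −0.16 also passed only with the block (adjusted p = 0.00395 and 0.0399, beside 0.0689 and 0.387 without it). With length and GC offsets Gnao1 was at −0.01 (adjusted p = 0.966, 0.873 with the block as well), and Gna12 passed (0.0340). Amz1, on the opposite strand, covers 13.3% of the Gna12 exon bases. Gnai2, at −0.12, passed only with the block and the offsets together (−0.14, adjusted p = 0.0371), and Gnaz, Gna14 (0.14) and Gnat2 passed in none of these fits. Without GFP replicate 1 the sign turned for Gna14 (−0.19) and Gnaz (0.02).

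Summed per kilobase, the alpha transcripts stood at 377 ± 24.9 CPM per kb under HA-NUR77 and 391 ± 16.5 under GFP. The Gi/o family made up 40.5% ± 0.670 against 43.7% ± 1.46, and the Gs family 36.8% ± 0.929 against 33.5% ± 1.80. The Gq/11 family was at 12.2% in both groups, and the G12/13 family at 10.5% and 10.6%. The order of the families was thus the same in all 6 libraries. These shares depend on the length used, since the exon union of Gnas, with its alternative products, spans 11186 bases and that of Gnai2 3779. In CPM, Gnas stood at 1552 under HA-NUR77 and 1465 under GFP, and Gnai2 at 410 and 446. Which of Gs and Gi/o was larger, and how near Gnas lay to Gnai2, therefore rests on that choice. Within the class, the ranges of Gnas (121 to 151 CPM per kb) and Gnai2 (99.2 to 125) overlapped, though Gnas lay above Gnai2 within each library. Those of Gnai3 (36.0 to 47.4) and Gna11 (32.0 to 35.7) did not overlap, and Gna12 (19.3 to 25.0) overlapped Gna13 (16.6 to 19.8).

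**Figure D4:**
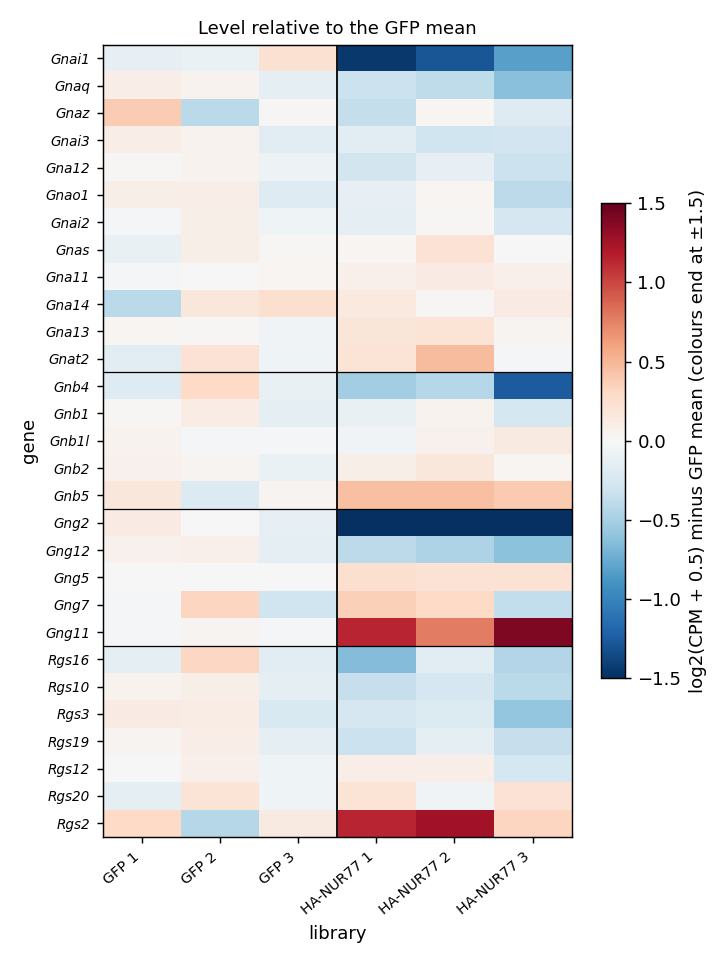
Level of each tested gene in each library as log2(CPM + 0.5) minus the GFP mean, with GFP libraries left of the vertical line, HA-NUR77 libraries right of it, and classes separated by horizontal lines. Colours end at ±1.5, which Gng2 passes in all 3 HA-NUR77 libraries, and Gng11 and Gnai1 differ in all 3 from every GFP library.

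Of the beta subunits, Gnb5 rose and none fell. Gnb5 encodes the divergent beta subunit that pairs with RGS proteins of the R7 subfamily in place of a gamma subunit. It had 297, 351 and 205 reads under HA-NUR77 and 212, 139 and 169 under GFP. The HA-NUR77 levels lay close together (14.7 to 15.3 CPM), above the GFP range of 9.54 to 12.6 CPM. The log2 fold change was 0.43 (SE 0.12, adjusted p = 0.0315 by edgeR's quasi-likelihood test). The call was lost with length and GC offsets (adjusted p = 0.0813), and with HA-NUR77 replicate 1, 2 or 3 or GFP replicate 2 or 3 left out (0.102, 0.0709, 0.0607, 0.0746 and 0.0627). An antisense gene, Gm19531, covers 7.96% of the Gnb5 exon bases, and the strand setting of the counting is not given. The R7 partners Rgs6, Rgs7, Rgs9 and Rgs11 had 46 reads in all under HA-NUR77 and 33 under GFP, and none of the 4 was tested.

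Gnb1, the most abundant beta gene, had 6089, 8079 and 3943 reads under HA-NUR77 and 5799, 5368 and 4584 under GFP. Its groups overlapped, with a log2 fold change of −0.10 (SE 0.10, adjusted p = 0.481 by edgeR's quasi-likelihood test). Gnb2 followed at 52.8 CPM per kb over all libraries, beside 77.0 for Gnb1, with a log2 fold change of 0.10 (adjusted p = 0.363). With the block and the offsets together Gnb1 was called lower (−0.17, adjusted p = 0.0149) and Gnb2 higher (0.14, adjusted p = 0.0412). The ratio of Gnb1 to Gnb2 per kilobase was 1.36 ± 0.0869 against 1.56 ± 0.0736 (exact two-sided permutation p = 0.1). Gnb1 made up 55.1% ± 1.54 of the beta level under HA-NUR77 and 58.6% ± 1.24 under GFP, and Gnb2 40.6% ± 1.47 and 37.6% ± 0.955. Gnb4, a beta subunit closely related to Gnb1 and Gnb2, had 265, 335 and 112 reads against 291, 358 and 271, at 8.04 to 14.6 CPM against 17.2 to 24.6 CPM. Its log2 fold change was −0.71 (SE 0.23), with adjusted p = 0.0589 by edgeR's quasi-likelihood test and 0.00235 with the replicate block. Gnb1l was at 4.04 and 3.89 CPM (log2 fold change 0.05). The summed level of the 5 true beta genes was 124 to 146 CPM per kb in the HA-NUR77 libraries and 125 to 144 in the GFP libraries.

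None of the 7 tested Rgs genes passed the test, with 3 of them at an unadjusted p under 0.05, beside 40.6% of all genes. DESeq2 called 1 of the 7 (Rgs2), beside 27.9% of all genes, limma-voom called 0, beside 25.7%, and the fit with the replicate block called 4, beside 48.1%. The summed Rgs level was 19.3 ± 1.83 CPM per kb under HA-NUR77 and 22.2 ± 1.77 under GFP. Rgs19, an RZ subfamily regulator of inhibitory alpha subunits, was the most abundant per kilobase. It had 291, 392 and 206 reads under HA-NUR77 and 328, 296 and 255 under GFP. The groups nearly touched, at 14.8 to 17.1 CPM against 17.2 to 20.3 CPM. Its log2 fold change was −0.28 (SE 0.10, adjusted p = 0.0812 by edgeR's quasi-likelihood test, 0.0136 with the block and 0.0192 with length and GC offsets).

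Rgs2, a regulator with a preference for Gq, had the largest fitted change of the class at a low level. It had 47, 61 and 16 reads under HA-NUR77 and 19, 7 and 14 under GFP. The groups did not overlap, but HA-NUR77 replicate 3 (1.15 CPM) lay close to GFP replicate 1 (1.13 CPM). The log2 fold change was 1.30 (95% interval 0.18 to 2.43), and the adjusted p lay just outside the threshold at 0.0507 by edgeR's quasi-likelihood test. It was 0.00882 with the replicate block, 0.0409 with DESeq2 and 0.0220 without HA-NUR77 replicate 3. Over the 17 alternative settings its adjusted p ranged from 0.00882 to 0.141.

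Rgs3, an R4 subfamily member that acts on Gi and Gq, had 540, 662 and 309 reads against 613, 527 and 420. Its groups overlapped slightly, and its log2 fold change was −0.35 (adjusted p = 0.0948 by edgeR's quasi-likelihood test, 0.00129 with the block, 0.0400 without GFP replicate 3). Rgs16, of the same subfamily, was at −0.49 (adjusted p = 0.177, 0.0471 with the block). Rgs10, the small R12 member, was at −0.39 (adjusted p = 0.129, 0.0911 with the block), and it passed with length and GC offsets (−0.57, adjusted p = 0.0468). Rgs12, a large multidomain R12 member, was at 47.5 ± 6.61 CPM against 48.0 ± 2.48 CPM, a log2 fold change of −0.01 (95% interval −0.31 to 0.29) whose sign turned under 5 alternative settings. Rgs20, an RZ subfamily regulator, was at 0.13. By subfamily, the R12 genes held 2870 reads under HA-NUR77 and 2408 under GFP, the R4 genes 1774 and 1768, and the RZ genes 1168 and 1082.

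The 22 genes not tested had at most 39 reads summed over the HA-NUR77 libraries and at most 48 over the GFP libraries. They were 4 alpha, 1 beta, 4 gamma and 13 Rgs genes, and Gnat1, Rgs6 and Rgs22 had no read in any library. Rgs14, an R12 regulator, had 2, 10 and 2 reads under HA-NUR77 and 21, 19 and 8 under GFP, and Rgs4, an R4 regulator, had 5, 6 and 2 against 7, 13 and 13. Without a filter on low counts both were called lower (adjusted p = 0.0167 and 0.0379 by edgeR's quasi-likelihood test), beside 15.9% of all genes in that fit (7.66% higher and 8.19% lower), the 2 genes of the 22 for which that was so. Scaled to depth, the groups did not overlap for either gene. Rgs17 had 15 reads against 3, Rgs11 39 against 23, Rgs7 3 against 10, and Gnal, the olfactory stimulatory alpha subunit, 20 against 31. Gng4, Gng8, Gng10 and Gng13 had 1 to 14 reads per group, and Gng10 and Gng13 share 72.0% and 51.6% of their exon bases with other annotated genes, so their reads are uncertain. The other 9, Gna15, Gnat3, Gnb3, Rgs1, Rgs5, Rgs8, Rgs9, Rgs13 and Rgs18, had 0 to 6 reads per group.

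The genes that G proteins act on or through were described in 9 lists, which were chosen with earlier results of these data known. Of all 12509 genes tested, 25.6% were called, and 48.1% with the replicate block. Beside that, 25% of tested adenylyl cyclases, 31.25% of phosphodiesterase and protein kinase A genes and 58.3% of Gq effectors were called. The share was 57.1% for G12 and G13 effectors, 33.3% for receptor kinases and arrestins and 23.5% for other modulators. It was 50% for betagamma effectors, 41.7% for receptors and 21.4% for CREB-responsive genes. Of the 4 adenylyl cyclases tested, which make cAMP, none rose and Adcy3 fell (4.48 to 2.22 CPM, log2 fold change −0.99, adjusted p = 0.0181 by edgeR's quasi-likelihood test). Its call was lost without HA-NUR77 replicate 1 (adjusted p = 0.0654) or without GFP replicate 1 or 2 (0.0643 and 0.0548). Adcy7, the most abundant of them in CPM, was at 451 ± 34.6 CPM against 445 ± 27.3 CPM. Of 16 genes for cAMP phosphodiesterases and protein kinase A, 3 rose and 2 fell (6 and 5 with the replicate block). The kinase's type II regulatory subunits rose, Prkar2a from 112 ± 8.65 to 163 ± 8.91 CPM (log2 fold change 0.54) and Prkar2b from 26.7 ± 3.08 to 41.7 ± 2.17 CPM (0.65), and both held with each library left out in turn. The catalytic subunit gene Prkacb fell by 0.27 on the log2 scale and the phosphodiesterase gene Pde3a by 1.42. Both of these calls were lost without GFP replicate 1 (adjusted p = 0.0665 and 0.0926) and without HA-NUR77 replicate 3 (0.0572 and 0.0681). That of Prkacb was also lost without GFP replicate 2 (0.0672) or HA-NUR77 replicate 1 (0.0566), and that of Pde3a without GFP replicate 3 (0.0705) or HA-NUR77 replicate 2 (0.0832).

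Of 12 tested Gq effectors, 7 fell and none rose (10 and 0 with the replicate block), with a list median of −0.40 beside 0.01 over all genes. That is 58.3% of the list, beside the 25.6% of all genes, and the blocked count stands beside 48.1% of all genes. The count was 4 without replicate 1 or 2 of HA-NUR77 and without replicate 1 of GFP. The exchange factor genes Kalrn (32.0 ± 4.62 to 15.5 ± 3.78 CPM, log2 fold change −1.04) and Arhgef25 (39.3 ± 4.12 to 23.2 ± 2.30 CPM, −0.76), whose products bind activated Gq, had the smallest adjusted p (0.00862 and 0.00336 by edgeR's quasi-likelihood test). Both held with each library left out in turn. The other 5 were Plcb1 and Plcb4, which encode phospholipase C beta isoforms, Prkca, Itpr1 and Trio. Of these, Itpr1, the channel that releases calcium on binding inositol trisphosphate, held with each library left out in turn. The call of Plcb1 was lost without GFP replicate 1 or HA-NUR77 replicate 2, with adjusted p up to 0.0728. Those of Plcb4 and Prkca were each lost without 4 of the 6 libraries (up to 0.127 and 0.0781, GFP replicate 1 left out in both). That of Trio was lost without any library but GFP replicate 1 (up to 0.152, without HA-NUR77 replicate 1) and with length and GC offsets (0.533).

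Of the 7 G12 and G13 effectors, Rhoa rose (383 ± 21.9 to 460 ± 16.5 CPM, log2 fold change 0.27) and Arhgef1, Akap13 and Rock1 fell (1 and 4 with the block). The call of Rhoa was lost whichever of the 6 libraries was left out (adjusted p = 0.0546 to 0.128 by edgeR's quasi-likelihood test), the lowest without GFP replicate 2 and the highest without GFP replicate 1. Akap13, an anchoring protein with exchange activity for RhoA, fell by 0.36 on the log2 scale (adjusted p = 0.0109, 0.0506 without HA-NUR77 replicate 1). Rock1, a kinase activated by RhoA, fell by 0.67 (adjusted p = 0.0211, 0.0786 without GFP replicate 1 and 0.0592 without HA-NUR77 replicate 1). The call of Arhgef1, an exchange factor for RhoA, was kept only without GFP replicate 3 among these fits (up to 0.124, without GFP replicate 2). With length and GC offsets, 1 of the 3 lower calls of this list was left.

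Of 6 receptor kinases and arrestins, which silence activated receptors, Grk4 and Grk6 fell by 0.88 and 0.38 on the log2 scale and none rose (0 and 3 with the block). Both calls were lost without GFP replicate 1 (adjusted p = 0.0969 and 0.142), GFP replicate 2 (0.0770 and 0.108) or HA-NUR77 replicate 3 (0.0672 and 0.0894). That of Grk4 was also lost without HA-NUR77 replicate 2 (0.0789) and that of Grk6 without HA-NUR77 replicate 1 (0.0918). Of 17 other modulators, 3 rose and 1 fell (5 and 2 with the block). Beside Gngt2, the phosducin-like gene Pdcl3 rose from 104 ± 2.13 to 130 ± 3.14 CPM (log2 fold change 0.33, adjusted p = 0.00811 by edgeR's quasi-likelihood test). Ric8b, an exchange factor and chaperone for stimulatory alpha subunits, also rose (0.27, adjusted p = 0.0355), a call kept only without HA-NUR77 replicate 2 when 1 library was left out (up to 0.117, without GFP replicate 1). Axin2, a WNT pathway scaffold with an RGS domain, fell by 0.55, and its call was lost without HA-NUR77 replicate 1 or 2 or GFP replicate 2 (adjusted p = 0.0767, 0.0582 and 0.0605).

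Only 4 of 10 betagamma effectors were tested, and their median, at 0.98, was the furthest from 0 of the 9 lists. That median lies between Pik3cb (0.27, adjusted p = 0.303 by edgeR's quasi-likelihood test) and Prex1 (1.68, adjusted p = 0.0582), neither of them called. Of the called genes 1 rose and 1 fell, so the median does not describe a rise of the whole list. Pik3r5, a regulatory subunit through which betagamma acts on a phosphoinositide 3-kinase, had 40, 48 and 46 reads under HA-NUR77 and 2, 5 and 5 under GFP. Prex2, a RAC exchange factor that betagamma activates, had 3, 3 and 6 reads against 31, 15 and 21. In neither gene did the groups overlap. Pik3r5 had enough reads to be tested only through its HA-NUR77 libraries and Prex2 only through its GFP libraries. Some gap between the groups was thus a condition of their being tested. The log2 fold changes were 3.20 (SE 0.40, adjusted p = 0.00211) and −2.69 (SE 0.46, adjusted p = 0.00680) by edgeR's quasi-likelihood test, and both held with each library left out in turn. With the replicate block 3 of the 4 rose and 1 fell. In the same list, the kinase gene Pik3cg had 4 reads under HA-NUR77 and 2 under GFP. Pik3r6 had 1 and 7, and neither was tested. Pik3r5 is, like Gngt2, known from blood cells, and the part of the macrophage markers given above in its result was not tested.

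**Figure D5:**
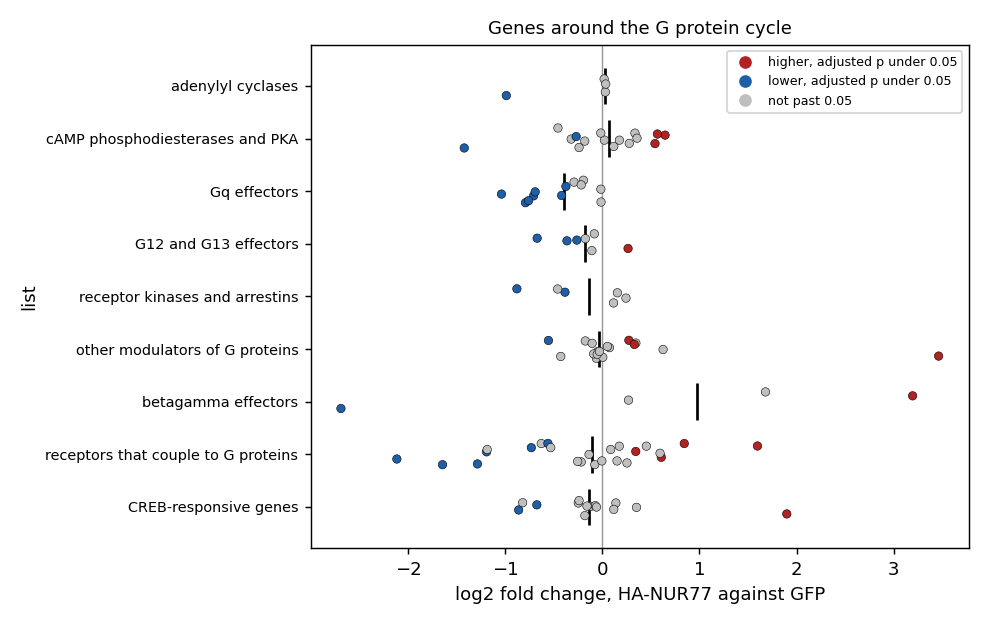
Fitted log2 fold change (HA-NUR77 against GFP) of each tested gene in the 9 lists around the G protein cycle, red for higher and blue for lower at an adjusted p under 0.05, grey otherwise, with the list median as a black bar. The Gq effectors lie left of 0 and the betagamma effectors spread from −2.69 to 3.20.

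Of 24 tested receptors that couple to G proteins, 4 rose and 6 fell (6 and 9 with the block). Adora2b, an adenosine receptor that couples to Gs, rose from 7.96 ± 0.196 to 24.1 ± 1.01 CPM (log2 fold change 1.60, SE 0.09, adjusted p = 9.06e-05 by edgeR's quasi-likelihood test). P2ry2, a nucleotide receptor that couples to Gq, rose from 14.6 ± 1.60 to 26.1 ± 2.42 CPM (0.84). Htr2b, a serotonin receptor that couples to Gq, fell from 12.4 ± 0.804 to 2.88 ± 0.654 CPM (−2.12), and the cannabinoid receptor gene Cnr1, which couples to Gi, fell from 3.72 ± 0.494 to 1.17 ± 0.292 CPM (−1.65). All 4 held with each library left out in turn. Lpar1 also rose, and F2r, Lpar4, Lpar6 and Adra1b also fell. The calls of Lpar1 (adjusted p = 0.0768) and Lpar6 (0.0537) were lost without GFP replicate 1, and that of Lpar1 also without HA-NUR77 replicate 1 (0.0733).

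Of 14 genes known to respond to CREB, the transcription factor that cAMP signalling activates, 1 rose and 2 fell (2 and 5 with the block), with a list median of −0.14. Atf3 had 138, 247 and 111 reads under HA-NUR77 and 25, 49 and 32 under GFP (log2 fold change 1.90, adjusted p = 0.00512 by edgeR's quasi-likelihood test). Junb fell from 65.4 ± 6.87 to 41.0 ± 1.19 CPM (−0.67, adjusted p = 0.00226), and both held with each library left out in turn. Fosb fell by 0.86 from a low level (adjusted p = 0.0372), and its call was lost whichever of the 6 libraries was left out, with adjusted p from 0.0613 without HA-NUR77 replicate 3 to 0.120 without GFP replicate 1.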

How the data were processed

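RNA-seq of 6 C2C12 libraries was analysed, 3 per construct. Per the labels' protocols, poly(A) RNA from 1000 ng of total RNA was made into stranded libraries with 12 PCR cycles. Each library has 1 deposited table of raw counts, the reads assigned to each Ensembl gene. Per the submitters' processing notes, TopHat2 2.1, HTSeq and DESeq2 were used with build mm10, and the annotation release and the strand setting are not given in the sources used here. PCR reads without molecular identifiers are not independent molecules.

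Symbols, exon lengths and coordinates came from GENCODE M21 (GRCm38), which named 22872 of 23154 IDs. Counts were tested with edgeR 4.0.16 (R 4.3.3), by the robust quasi-likelihood test with group alone in the model and TMM scaling, over the 12509 genes kept by filterByExpr (minimum count 10). That filter asks for enough reads in as many libraries as a group holds, so a gene low in 1 group can enter through the other alone. For such a gene some gap between the groups was a condition of its being tested. Benjamini-Hochberg adjustment ran over those genes, with a threshold of 0.05. SE is the size of the fitted log2 fold change divided by the square root of the F statistic. The 95% intervals use that SE with a t distribution on the residual degrees of freedom alone. The test also pools spread over genes, so the intervals are wider than the test implies. Levels per kilobase use the union of annotated exons. In total 17 alternatives were tried, with DESeq2 1.42.0 and limma 3.58.1 (voom) among them, and the offsets for length and GC content used mgcv 1.9.3. A fit that leaves out 1 library assumes that the pair left in its group varies like the rest.

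The labels number the dishes 1 to 3 in each group without naming a shared day. The deviations of same-numbered libraries from their group means correlated across genes at 0.250, 0.551 and 0.475, each over the 0.1 set for a pairing, and those of different numbers at −0.437 to −0.0547. Deviations within a group cancel out by construction, so the negative values follow in part from the positive ones and are no separate evidence. No label gives the pairing, which was read from the data and is an assumption of the blocked fit. Libraries of a group all differed by more than sampling noise, with a chi-square per degree of freedom of at least 11.4.

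The genes, the 9 lists around them and the 7 marker lists were chosen with earlier results of these data known. Full values are given for genes past the threshold with groups that do not overlap and a mean of 1 CPM or more where it is higher, and for the most abundant gene of each class per kilobase. Of each list, up to 2 genes past the threshold in each direction are given by adjusted p, or the most abundant gene where none passed. Library values of Gng7, Gnb4, Rgs2, Rgs3, Rgs4 and Rgs14, the other listed genes named where few passed, the Adcy7 level, the AGGTCA and GGGCGG searches and the 3 printed stretches were chosen after the values were seen. Of the genes that passed the test in the receptor list, 1 is not reported here by name.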

Additional observations from a re-analysis of the deposited data

How the results depend on the processing

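Gng2, Gng11, Gng12 and Gnai1 kept their direction and their side of the threshold under all 17 alternatives. Gnaq kept its call in 15, Gnb5 in 11 and Gng5 in 10, and no called gene changed sign. With library factors by relative log expression, with the stricter filter and with limma-voom the same 7 genes were called. Among genes not called, the log2 fold change of Rgs12 turned to 0.0084 with upper-quartile factors, 0.0627 with length and GC offsets and 0.0586 with those and the block. With 1 library left out at a time it ranged from −0.0723 to 0.0951 for Rgs12, −0.193 to 0.368 for Gna14, −0.478 to 0.0199 for Gnaz and −0.0823 to 0.437 for Nr4a1. Depth limits the 22 untested genes and those under 2 CPM, and the cause of the changes below was not tested.

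With the replicate block, members called were 5 higher and 11 lower: alpha 1 and 5, lower beta 1, Rgs 1 and 3. Of all genes 2942 and 3071 were called, and of the 9 lists together 23 higher and 39 lower. Among the lists the block gave 6 and 5 for phosphodiesterases and protein kinase A, 5 and 2 for other modulators, 3 higher for betagamma effectors, and 2 and 5 for CREB-responsive genes. With the replicate block and length and GC offsets together, 7 and 13 members were called: alpha 2 and 5, beta 2 and 2, Rgs 1 and 4. Of all genes 2959 and 2901 were called, and 23 higher over the 9 lists, with 6 higher for phosphodiesterases and protein kinase A, 5 and 2 for other modulators, 3 higher for betagamma effectors, and 3 and 4 for CREB-responsive genes. With length and GC offsets alone, 1 and 7 members were called, beside 1467 and 1645 of all genes. Higher beta genes numbered 0, higher gamma 1 and lower Rgs 2. Among the lists there were 1 lower G12 and G13 effector, 2 lower other modulators and 2 higher betagamma effectors.

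With no filter on low counts, 1 gamma gene was higher, 1 Rgs gene higher and 2 lower, 0 G12 and G13 effectors higher and 1 CREB-responsive gene lower. Rgs genes called higher numbered 1 with upper-quartile factors, library totals, thinned counts and DESeq2. DESeq2 also called 1 lower beta gene and 2 higher betagamma effectors, and thinned counts left 1 CREB-responsive gene lower.

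Leaving out 1 library at a time called 1 to 2 members higher and 3 to 7 lower, with alpha 0 and 1 to 3, beta 0 to 1 and 0, gamma 1 to 2 and 2, and Rgs 0 to 1 and 0 to 2. Of all genes it called 642 to 1489 higher and 850 to 1572 lower, and over the 9 lists together 9 to 14 higher and 13 to 21 lower. By list, higher and lower, the ranges were 0 and 0 to 1 for adenylyl cyclases, 2 to 4 and 0 to 1 for phosphodiesterases and protein kinase A, 0 and 4 to 5 for Gq effectors, 0 and 0 to 3 for G12 and G13 effectors, 0 and 0 to 2 for receptor kinases and arrestins, 2 to 3 and 0 to 1 for other modulators, 1 to 2 and 1 for betagamma effectors, 3 to 4 and 5 to 7 for receptors, and 1 and 1 for CREB-responsive genes. The lowest counts over all genes came without GFP replicate 1.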
